A study of Mus musculus with 8 samples.

Results

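Cytosolic ribosomal protein genes encode the protein part of the ribosome, the Rps genes that of the small subunit and the Rpl and Rplp genes that of the large subunit. Together with ribosomal RNA these proteins build the particles that translate mRNA. Most ribosomal protein mRNAs begin with a C followed by a run of pyrimidines, the 5′ terminal oligopyrimidine (TOP) tract, through which their translation follows mTOR signalling. In T cells, naive cells are small and quiescent, while effector cells carry abundant mRNA for cytotoxic proteins.

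The members were all symbols made of Rps or Rpl and a number, with the usual suffixes, plus Rpsa, Rplp0, Rplp1 and Rplp2, without the Rps6k kinases, that held 1000 or more UMIs (counted mRNA molecules) in the 4 gene expression libraries together. There were 80 members among 32285 genes in the files, and 83 symbols fitted the name pattern. The 3 symbols outside the limit were Rpl10l with 0 UMIs, Rpl3l with 42 and Rpl39l with 737. The 3 members nearest to the limit from above were Rpl7l1 with 11633 UMIs, Rps27l with 37448 and Rpl10 with 271771. The limit therefore falls in a wide gap.

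T cells came from the bone marrow of C57BL/6 mice. The Runx1::Runx1t1 group was Runx1Runx1t1/+; Mx1-Cre, in which the interferon-responsive Mx1 promoter drives Cre and the recombined allele expresses the leukemia fusion gene, and the control group was Runx1Runx1t1/+ without Mx1-Cre, given as WT in the sample labels. Both received Poly(I:C), 4 injections of 5 mg/kg, and were sacrificed 4 weeks after induction. Ages are not given in the sources used here. Each group had 2 pools of 2 mice, and live CD3+ cells negative for mCherry, which reports the fusion gene, were sorted after negative enrichment. Runx1t1 held 100 and 107 UMIs in the Runx1::Runx1t1 libraries and 15 and 37 in the control libraries (kept cells).

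The libraries held 90958101 to 102883449 UMIs each, and 52924 of 56649 barcodes were kept. There were 1627 barcode sequences that occurred in more than 1 library. By a gate on RNA, 3490 kept cells lacked Cd3 transcripts or carried genes of B cells, progenitors or erythroid cells. A further 43388 cells fell into the 7 classes compared here. Outside them were 4340 other Cd8 cells, whose share of member UMIs by pool, 37.2% to 39.6%, overlapped that of naive Cd8 cells, and 1706 cells with both Cd4 and a Cd8 gene, with 24.7% to 30.2%. Naive Cd8 cells had Cd8a or Cd8b1 without Cd4, at least 2 of 6 naive genes that include Ccr7, Lef1, Dapl1, Igfbp4 and Actn1, and none of the memory genes. Memory Cd8 cells had at least 2 of Ccl5, Il2rb, Cxcr3, Gzmk and Eomes, effector Cd8 cells at least 2 of Klrg1, Cx3cr1, Zeb2, Gzma, Gzmb and S1pr5, and Pdcd1 Cd8 cells any UMI of Pdcd1, which encodes PD-1, read in the order Pdcd1, effector, memory and naive. Cd4 cells had Cd4 without Cd8a or Cd8b1, and were naive by the same naive genes with no Pdcd1, Foxp3 or effector gene, or else other Cd4. Co-receptor-negative cells had a Cd3 transcript and none of the 3. No ribosomal protein gene entered these gates.

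The first bases of the mRNA are shown here because the members' shared TOP tract lies there. RefSeq promoters (GRCm38.p6) were found for 60 of the 80 members, and 9 of these had more than 1 listed start. The other 20 had no entry. A C followed by at least 5 C or T, beginning within 5 bases of an annotated start on the gene's strand, was present in 26 of the 60 (43.3%) and in 3229 of all 27025 genes listed (11.9%). The other 34 members had no such run at these annotated starts. Within the 300 bases of the promoter, the letters CCGGAAG of the ETS factor core occurred on either strand in 41.7% of the members and 9.93% of all genes listed, and AAGATGG of the YY1 core in 16.7% and 7.28%. The 30 bases around the start of 6 members follow, 15 before it and 15 from it on, with the tract in capitals. Where more than 1 start was listed, as the 2 of Rps24, the first with a tract is shown if any had one. The tract of Rpl13a is 14 bases long and runs past the end of the window. Rps24 is the most abundant member, Rpl35 and Rpl12 are among those with the largest falls, Rpl13a among those with the smallest, and Rps27l and Rpl7l1 are low-abundance paralogs with no such run beginning within 5 bases of the start.
Rps24 (chr14:24490663-24490692, plus strand): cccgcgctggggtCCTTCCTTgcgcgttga
Rpl35 (chr2:39005117-39005146, minus strand): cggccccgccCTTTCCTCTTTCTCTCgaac
Rpl12 (chr2:32961697-32961726, plus strand): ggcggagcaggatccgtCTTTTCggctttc
Rpl13a (chr7:45128731-45128760, minus strand): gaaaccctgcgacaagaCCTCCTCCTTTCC
Rps27l (chr9:66946071-66946100, plus strand): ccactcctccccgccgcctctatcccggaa
Rpl7l1 (chr17:46782642-46782671, minus strand): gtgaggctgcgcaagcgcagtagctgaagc

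The 80 members took 30.6% of all UMIs in the kept cells, between 27.5% and 32.6% by library. Rps24 alone held 4003235 UMIs, 1.02% of the total over all barcodes. It was followed by Rplp1 with 0.868%, Rpl13 with 0.799%, Rps16 with 0.78%, Rps15a with 0.711%, Rpsa with 0.699%, Rps20 with 0.654%, and Rps7 with 0.641%, and Rpl32 with 0.62% was also among the 10 most abundant. Rplp1 forms part of the acidic stalk of the large subunit, and Rpsa encodes a small subunit protein also known as the laminin receptor. These are shares of molecules, and 5′ counting is not scaled by transcript length.

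The share of UMIs was highest in naive Cd8 cells and lowest in other Cd4, effector Cd8 and Pdcd1 Cd8 cells. In naive Cd8 cells it was 40.1% and 38.7% in the Runx1::Runx1t1 pools and 39.4% and 40.3% in the control pools, 39.6% ± 0.745 over the 4 pools (SD). Memory Cd8 cells held 36.0%, 33.9%, 35.9% and 36.1% in the same order of pools, with a mean of 35.5% ± 1.06. The ranges of the 2 classes did not overlap. Effector Cd8 cells held 24.7%, 22.5%, 25.3% and 25.5%, a mean of 24.5% ± 1.36. Pdcd1 Cd8 cells held 23.1%, 20.1%, 28.5% and 27.2%, a mean of 24.7% ± 3.83. Naive Cd4 cells, in contrast, stood close to memory Cd8 cells with 35.3%, 35.0%, 32.6% and 35.3%, a mean of 34.6% ± 1.29. Other Cd4 cells held 23.9%, 22.3%, 23.6% and 24.5%, a mean of 23.6% ± 0.914. Co-receptor-negative cells held 26.7%, 25.3%, 29.3% and 29.9%, a mean of 27.8% ± 2.17. The neighbours memory Cd8 and naive Cd4 overlapped in range, as did other Cd4, effector Cd8 and Pdcd1 Cd8. The 95% Wilson intervals, which cover counting error only, reached at most 0.144 percentage points to either side.

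**Figure D1:**
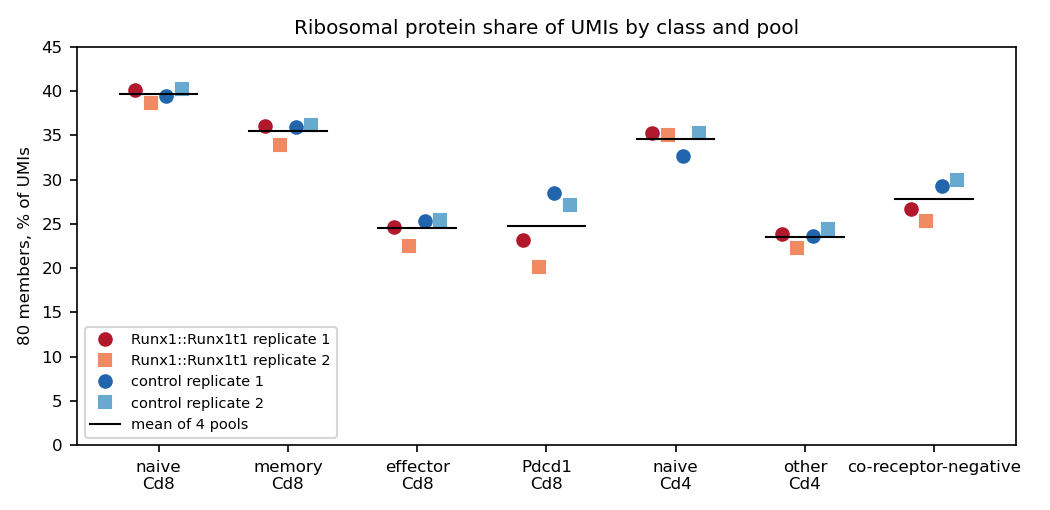
Share of UMIs of the 80 members (percent, vertical axis) in 7 classes, 1 point for each of the 4 pools and a black line at their mean. Naive Cd8 points lie between 38.7% and 40.3%, above every point of the other 6 classes shown, and effector Cd8 points between 22.5% and 25.5%.

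Within each pool, memory Cd8 cells differed from naive Cd8 cells by -4.12, -4.74, -3.47 and -4.15 percentage points, a mean difference of -4.12 ± 0.521 (SD, 4 pools). The difference was -15.1 ± 0.886 points for effector Cd8, -14.9 ± 3.51 for Pdcd1 Cd8, -5.08 ± 1.30 for naive Cd4 and -11.8 ± 1.82 for co-receptor-negative cells, all against naive Cd8. Other Cd4 cells differed from naive Cd4 cells by -11.0 ± 1.54 points. In all 6 comparisons the direction was the same in 4 of 4 pools, and the two-sided exact permutation test gave p = 0.125 each time, the smallest p that 4 pools allow. These comparisons share the naive cells and are not independent of each other. When the gates were read from cells thinned to 2000 UMIs, the differences were -6.51 points for memory and -18.7 for effector Cd8.

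Depth differed between the classes. Median UMIs per cell ranged over the pools from 5994 to 6562 in naive Cd8, 7484 to 8947 in memory Cd8, 4385 to 5808 in effector Cd8 and 5101 to 6322 in Pdcd1 Cd8 cells. They ranged from 4557 to 5240.5 in naive Cd4, 4540 to 5511 in other Cd4 and 4884 to 5850 in co-receptor-negative cells. Memory Cd8 cells had the most UMIs and a share below that of naive Cd8 cells. Effector Cd8, other Cd4 and co-receptor-negative cells had fewer UMIs than naive Cd8 cells and also a lower share. In replicate 1 of the Runx1::Runx1t1 group, the median naive Cd8 cell held 2515 member UMIs and 3708 others, and the median effector Cd8 cell held 1245 and 4521. Within a class, cells with more UMIs tended to a higher share, with Spearman's rho across cells of 0.303 to 0.446 in naive Cd8 and 0.380 to 0.649 in effector Cd8 by pool. The UMIs are part of both measures, so rho is given as a description. The part of mitochondrial UMIs was 1.89% to 2.03% in naive Cd8 and 1.33% to 1.61% in effector Cd8 cells. The part of depth or of mitochondrial UMIs in the result was not tested.

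Clusters of cells built without ribosomal protein genes gave a similar range. The cluster with the highest share, cluster 0 with 5655 cells, held 40.6%. Of the classes compared here, naive Cd8 was the most frequent in it, with 32.9% of its cells. Of the clusters whose cells passed the T cell gate, cluster 4 with 3933 cells, of which 57.3% were Pdcd1 Cd8, was lowest at 19.1%. Counted among the compared classes, clusters that were most often memory Cd8 spread from 28.6% to 38.8%, and those most often co-receptor-negative from 20.9% to 35.1%. These are shares of whole clusters, which also hold cells of other classes. Memory Cd8 cells made up 56.8% of cluster 7, at the low end, and 43.4% of cluster 5, at the high end. Co-receptor-negative cells made up 85.0% of cluster 16, at the low end, and 62.9% of cluster 2, at the high end.

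**Figure D2:**
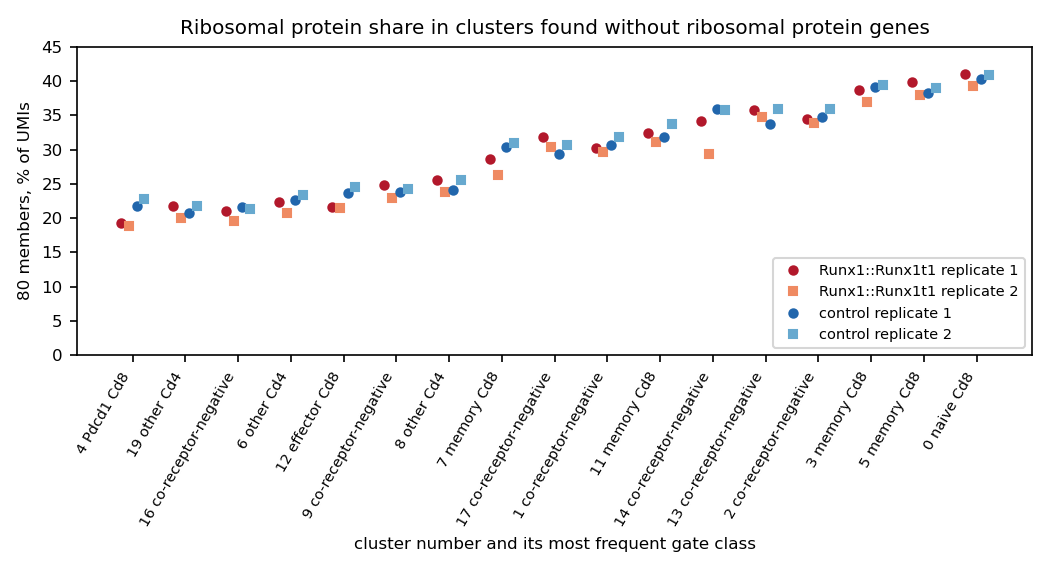
Share of UMIs of the 80 members (percent, vertical axis) in clusters found without ribosomal protein genes, ordered by their share, 1 point a pool. Each cluster is named by its number and the most frequent of the classes compared here, and the points run from 18.9% to 41.1%. Clusters whose cells most often failed the T cell gate are left out.

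Gene by gene, counts summed per pool and class were fitted in edgeR (quasi-likelihood, pools as blocks) over 11365 genes, with Benjamini-Hochberg adjustment. Fold changes are relative to TMM scaling. In memory against naive Cd8 cells, 58 of 80 members fell and 2 rose, where 13.9% of all genes were called lower and 17.1% higher. The median log2 fold change was -0.24 over the members and 0.01 over all genes. In effector Cd8 cells 78 fell and 1 rose (22% and 26.2% of all genes), with a median of -0.99 against 0.02. In Pdcd1 Cd8 cells the counts were again 78 and 1 (24.7% and 28.1%), with a median of -1.0 against 0.04. Between the naive classes, 76 members were lower in Cd4 than in Cd8 cells and 0 higher (4.78% and 3.43%), with a median of -0.39 against -0.04. No member was called higher there by DESeq2 either. From naive to other Cd4 cells 78 fell and 1 rose (10.2% and 13.7%), with a median of -0.73 against 0.07. In co-receptor-negative against naive Cd8 cells 78 were lower and 1 higher (21.8% and 24.9%), with a median of -0.80 against 0.01. Scaling by library size alone took the median of all genes in Pdcd1 Cd8 cells from 0.04 to 0.38, and the members' median there was -0.66 with 77 called lower. In naive Cd4 cells the same scaling left 41 members called lower, with a median of -0.19 against 0.16 over all genes. In memory Cd8 cells it left 38 called lower and 3 higher, with a median of -0.15 against 0.09. Of all 11365 genes, this scaling called 1289 lower in Pdcd1 Cd8, 232 in naive Cd4 and 952 in memory Cd8 cells. It called 2655 higher in memory Cd8 cells. The call of memory Cd8 cells leaned on single libraries, with 23 members called without replicate 1 of the Runx1::Runx1t1 group and 23 without replicate 2 of the control group. Of all genes, 2390 of 11394 and 2507 of 11600 were called in these 2 fits.

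**Figure D3:**
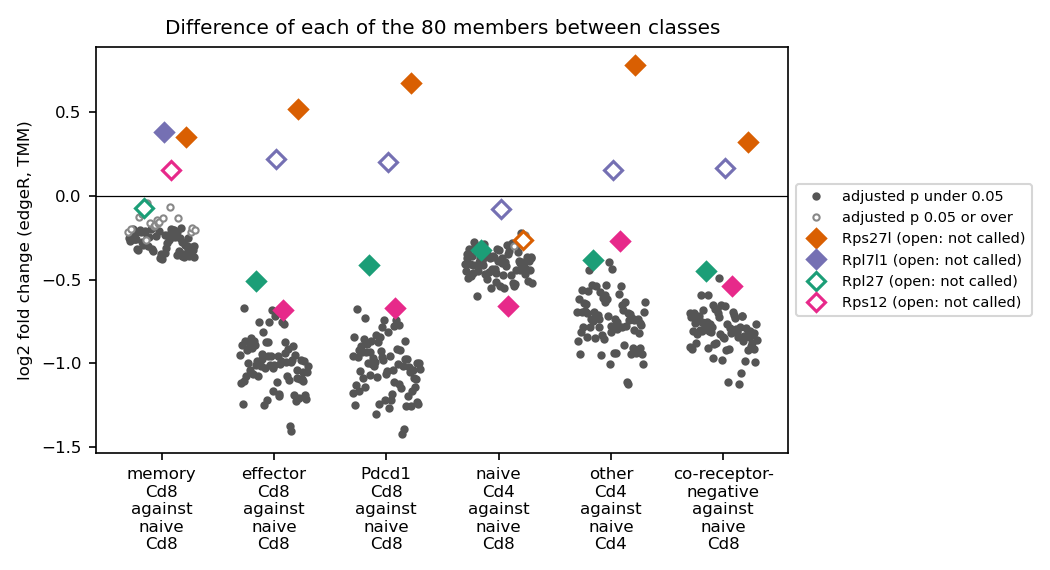
Log2 fold change (edgeR with TMM scaling, vertical axis) of each of the 80 members in 6 comparisons of classes, with filled symbols for an adjusted p under 0.05. Nearly all members lie below 0, and Rps27l, called higher in 5 of the 6 comparisons, lies above it there.

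The largest falls in effector Cd8 cells were those of the small subunit genes Rps20 and Rps19. Levels are given as CPM, the UMIs of a gene per 1000000 UMIs of the class and pool. Rps20 had 9601, 9197, 9234 and 9733 CPM in naive Cd8 cells (Runx1::Runx1t1 replicates 1 and 2, then control replicates 1 and 2) and 4467, 4045, 4673 and 4740 in effector Cd8 cells. The groups of values lay far apart, and the log2 fold change was -1.40 ± 0.11 (SE, adjusted p = 7.26e-11). Rps19, whose human counterpart is mutated in Diamond-Blackfan anemia, had 6856, 6688, 6588 and 6961 in naive Cd8 and 3234, 3031, 3350 and 3510 in effector Cd8 cells. Its log2 fold change of -1.37 ± 0.10 (edgeR, adjusted p = 3.62e-11) came next. Rpl35 with -1.25 and Rpl12 with -1.24 had the next largest falls in effector Cd8 cells. In Pdcd1 Cd8 cells they were Rps19 with -1.42, Rps20 with -1.39, Rpl35 with -1.30 and Rpl8 with -1.27. Rps20 with -1.12, Rps19 with -1.11 and Rpl5 with -1.0 were among the 4 largest falls in other against naive Cd4 cells, and Rps19 with -1.12, Rplp0 with -1.11 and Rps20 with -1.06 led in co-receptor-negative cells. Rpl5 binds 5S ribosomal RNA, and Rplp0 is the base of the acidic stalk.

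The memory and naive Cd4 comparisons had other leading members. In memory Cd8 cells the 4 largest falls included those of Rpl7 with -0.38, Rpl5 with -0.37 and Rps27 with -0.36. Between naive Cd4 and naive Cd8 cells they were Rps12 with -0.65, Rpl22l1 with -0.60, Rpl36a with -0.55 and Rplp1 with -0.55. Rps12 thus led in 1 comparison and was among the smallest differences in others, with -0.27 in other against naive Cd4 cells. In memory Cd8 cells Rps12 had 5153, 5091, 4982 and 5540 CPM against 4318, 4202, 4267 and 4813 in naive Cd8 cells, higher within each of the 4 pools, and its log2 difference of 0.15 ± 0.09 did not pass the test (edgeR, adjusted p = 0.188).

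**Figure D4:**
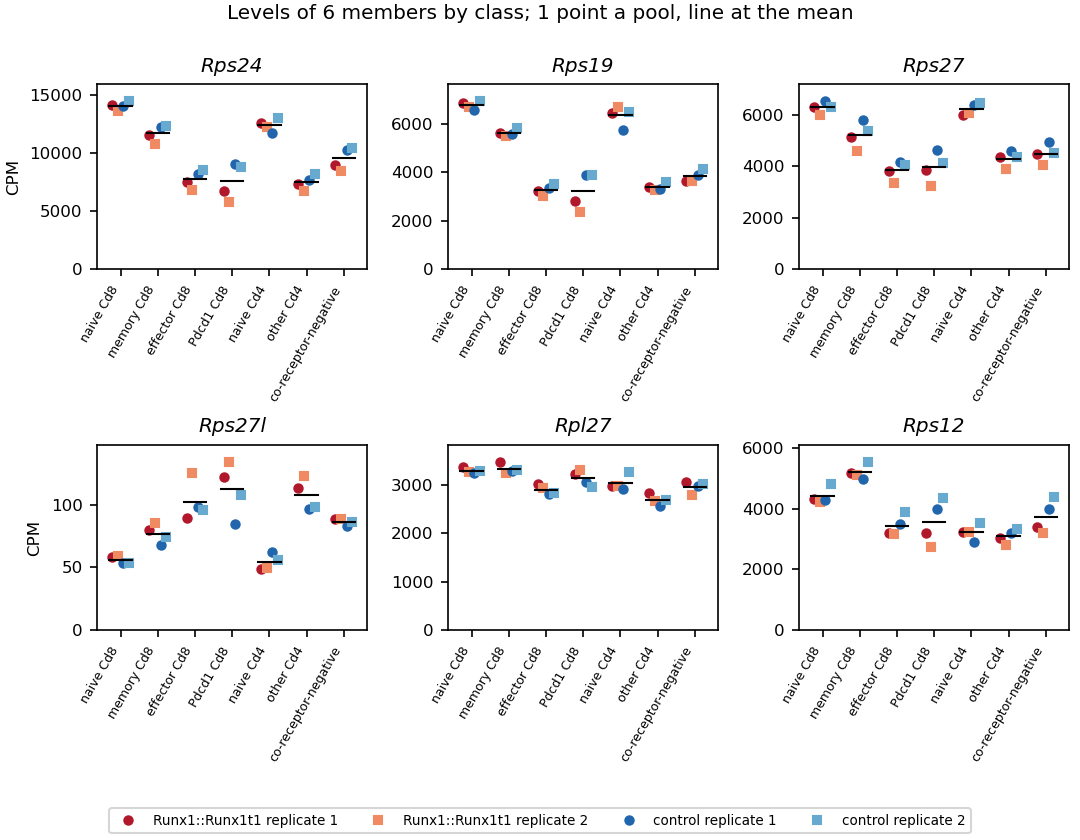
CPM (vertical axes, each from 0) of 6 members in the 7 classes, 1 point a pool and a line at the mean. Rps24 and Rps19 drop from naive to effector Cd8 cells, Rps27l goes the other way from 56.1 to 102 on average, and Rpl27 stays between 2573 and 3482 in every class and pool.

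Rps27l, a paralog of Rps27 that is known as a p53 target, moved against the majority. It had 58.4, 59.1, 53.3 and 53.8 CPM in naive Cd8 cells and 122, 134, 84.5 and 108 in Pdcd1 Cd8 cells. Every Pdcd1 Cd8 value was above every naive Cd8 value. The log2 fold change was 0.67 ± 0.09 (edgeR, adjusted p = 1.04e-06), and it was 0.35 in memory, 0.52 in effector and 0.32 in co-receptor-negative against naive Cd8 cells and 0.78 in other against naive Cd4 cells, all called. In naive Cd4 against naive Cd8 cells the difference was -0.26 and was not called. Rps27 itself fell by 1.04 on the log2 scale in effector and by 1.02 in Pdcd1 Cd8 cells. Its level stayed far above that of the paralog, at 3978 ± 585 CPM (SD, 4 pools) against 112 ± 21.3 in Pdcd1 Cd8 cells.

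Rpl7l1, a paralog of Rpl7, had a mean of 21.1 ± 2.3 CPM in naive and 28.7 ± 1.3 in memory Cd8 cells, and its log2 fold change of 0.38 ± 0.08 was the only other call of a higher member (edgeR, adjusted p = 0.000666). Its differences were 0.22 in effector, 0.20 in Pdcd1 and 0.17 in co-receptor-negative against naive Cd8 cells, with adjusted p from 0.0653 to 0.0978. Rpl22l1, the paralog of Rpl22, went with the majority. In effector Cd8 cells Rpl22l1 fell by 0.91 and Rpl22 by 0.85 on the log2 scale.

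The mix of members changed less than their sum. Taken as a part of the members' own UMIs, 72 of 80 members stayed within 1.25-fold of their naive Cd8 value in effector Cd8 cells, 6 were above and 2 below. The 2 below were Rps20, from 2.38% to 1.83% of member UMIs, and Rps19, from 1.71% to 1.34%. The 6 above were Rps27l, Rpl7l1, Rpl27, Rpl13a, Rps12 and Rpl41. Rpl27 went from 0.832% to 1.19%, and its own log2 fold change of -0.51 ± 0.05 was the smallest fall called (edgeR, adjusted p = 1.45e-08). The small subunit genes took 47.9% to 48.1% of member UMIs in naive Cd8 and 46.3% to 47.0% in effector Cd8 cells. Their median log2 fold change in effector Cd8 cells was -1.03 over 32 genes, and -0.96 over the 48 genes of the large subunit. Members with a tract at the annotated start had a median of -0.99 (26 genes, from -1.25 to -0.67) and those without one -0.97 (34 genes, from -1.37 to 0.52).

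Counts of 2 members are uncertain because other annotated genes are nearly identical to them. Rpl9-ps6 matched 99.8% of the Rpl9 transcript and held 1562872 UMIs against 371414 of Rpl9, and Gm10076 matched 99% of Rpl41 and held 1441642 against 297262. Rpl9-ps6 went from 5213 ± 52.6 CPM in naive to 3256 ± 74.5 in effector Cd8 cells, and Rpl9 from 1193 ± 53.8 to 770 ± 25.2. Gm10076 went from 4473 ± 284 to 3095 ± 204, and Rpl41 from 886 ± 16.3 to 690 ± 22.9. The copies of Rplp2 (Wdr89) and Rpl36a (Rpl36a-ps1) held 0.294% and 0.0142% as many UMIs as their members.

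Other genes of translation were counted on lists. Of 19 translation factors and other known TOP mRNAs, 14 fell in memory, 18 in effector and 18 in Pdcd1 Cd8 cells, with medians of -0.25, -0.75 and -0.68. In these comparisons 13.9%, 22% and 24.7% of all genes were called lower. Eef1b2, a subunit of elongation factor 1, fell by 1.26 in effector Cd8 cells, Tpt1 by 1.02 and Rack1, a protein of the small subunit, by 0.96. Nap1l1, a histone chaperone, was called higher in Pdcd1 Cd8 cells, at 0.37. Of 18 genes of ribosome biogenesis, 4 rose and 0 fell in memory Cd8 cells, where 17.1% of all genes were called higher and Nhp2 rose by 0.48. In effector Cd8 cells 1 rose and 9 fell, and in Pdcd1 Cd8 cells 1 rose and 13 fell, with Npm1, encoding nucleophosmin, at -0.94 and -0.99 and Ubtf, a factor of RNA polymerase I, at 0.19 and 0.34. Of 78 mitochondrial ribosomal protein genes, 15 rose and 15 fell in effector Cd8 cells, with a median of 0.01, where 26.2% of all genes were called higher and 22% lower. Mrpl51 stood at 0.78 and Mrpl23 at -0.76 there. Of 13 genes of growth control, 3 rose and 4 fell in effector Cd8 cells, where 26.2% of all genes were called higher and 22% lower. Myc fell by 1.30 there and by 1.5 in Pdcd1 Cd8 cells, Larp1, which binds TOP mRNAs, by 0.50 and 0.63, and Akt1 rose by 0.60 and 0.45.

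The same lists were counted in the Cd4 and co-receptor-negative comparisons. Of the 19 TOP and translation genes, 18 were lower in naive Cd4 than in naive Cd8 cells, 18 fell from naive to other Cd4 cells and 19 were lower in co-receptor-negative cells, and none was higher by edgeR. Eef1b2 had the largest called difference of this list each time, with -0.59, -0.86 and -1.05. Of all genes, 4.78%, 10.2% and 21.8% were called lower in these comparisons. Of the 18 biogenesis genes, 6, 5 and 15 were lower and 0 higher in these comparisons, with Rrs1 at -0.98 between the naive classes, Wdr12 at -0.90 in other Cd4 cells and Npm1 at -0.87 in co-receptor-negative cells. Of the 78 mitochondrial ribosomal protein genes, 11, 6 and 30 were lower and 0, 7 and 5 higher, where 4.78%, 10.2% and 21.8% of all genes were called lower and 3.43%, 13.7% and 24.9% higher. Mrpl30 stood at -0.37 between the naive classes and at -0.67 in other Cd4 cells, and Mrpl51 at 1.43 in other Cd4 cells. Of the 13 growth control genes, 1, 2 and 4 were lower and 1, 1 and 3 higher in the same comparisons. Myc stood at -1.31 between the naive classes and at -0.86 in co-receptor-negative cells.

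The 2 groups of mice were then compared within each class. In naive Cd8 cells the share was 39.4% ± 1.04 in Runx1::Runx1t1 mice and 39.9% ± 0.623 in controls (SD, n = 2 pools a group), and the pools overlapped. They also overlapped in memory Cd8, naive Cd4 and other Cd4 cells, with differences of -1.07, 1.23 and -0.935 points. The difference in memory Cd8 cells was -3.11 with gates read from thinned cells. With Runx1::Runx1t1 replicate 2 left out, memory Cd8 cells differed by -0.0237 points and other Cd4 cells by -0.144, and with replicate 1 left out by -2.11 and -1.73. The pools did not overlap in effector Cd8 cells, with 23.6% ± 1.52 against 25.4% ± 0.107, in Pdcd1 Cd8 cells, with 21.6% ± 2.13 against 27.8% ± 0.979, and in co-receptor-negative cells, with 26.0% ± 0.995 against 29.6% ± 0.476. The exact permutation test gave p = 0.333 for each of these 3 classes, the smallest that 2 against 2 pools allow. The difference of -1.81 points in effector Cd8 cells was -0.738 without replicate 2 and -2.88 without replicate 1 of the Runx1::Runx1t1 group. With cells classed by cluster, the differences of -6.21 points in Pdcd1 Cd8 and -3.59 in co-receptor-negative cells were -3.17 and -1.85.

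The main edgeR setting of the gene-level test used TMM scaling, an expression filter and no replicate block. With it, 0 of 80 members were called between the groups in naive Cd8, memory Cd8, effector Cd8, Pdcd1 Cd8, naive Cd4 and other Cd4 cells. Of all genes, 1.12%, 3.84%, 0.844%, 3.29%, 0.242% and 1.55% were called there. At an unadjusted p under 0.05 the member counts were 1, 2, 13, 69, 3 and 1. The share of all genes at that limit was not counted, so these numbers are given as a description. DESeq2 called 30 members in Pdcd1 Cd8 cells, each of them lower in Runx1::Runx1t1 mice. Of all 9453 genes there it called 422, with 220 lower. It called 0 members in the other 5 classes, where it called 57, 496, 113, 9 and 274 genes in the same order. The median in Pdcd1 Cd8 cells was -0.43 over the members and 0.00 over all genes, and the member with the smallest adjusted p was Rps19 at -0.66 ± 0.15 (edgeR, adjusted p = 0.0548). The members' median there was -0.57 without replicate 1 of the Runx1::Runx1t1 group and -0.29 without replicate 2. In effector Cd8 cells it was -0.10 with all 4 pools, and -0.19 and -0.03 in the same order. Naive Cd4 cells went the other way, with a members' median of 0.09 with all 4 pools and 0.19 without replicate 2 of the control group. The Pdcd1 Cd8 class held 604 and 2160 cells in the Runx1::Runx1t1 pools and 111 and 117 in the control pools. The largest T cell clone made up 14.7% and 41.3% of the class in the former and 5.41% and 5.13% in the latter. With clones of 10 or more cells left out, the share was 25.3% and 22.0% against 28.7% and 27.5%. Cells with a UMI of Klrb1c, which encodes the natural killer receptor NK1.1, made up 2.65% and 0.741% of Pdcd1 Cd8 cells in the Runx1::Runx1t1 pools and 7.21% and 8.55% in the control pools. Summed neutrophil transcripts (S100a8, S100a9, Lyz2, Ngp and Camp) were 4.77 and 4.36 CPM against 58.3 and 40.2 there, and 81.2 and 2.07 against 1046 and 345 in effector Cd8 cells. Their part in the differences was not tested. On the other lists, Myc was lower in Pdcd1 Cd8 cells of the Runx1::Runx1t1 group at -1.39 ± 0.17 (edgeR, adjusted p = 0.0121), as were Mrpl23 at -0.80 and Mrps6 at -0.68. In memory Cd8 cells of this group 4 of 18 biogenesis genes were higher, namely Dkc1 at 0.39, Nop58 at 0.39, Rrs1 at 0.37 and Nolc1 at 0.34.

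In the same main edgeR setting, co-receptor-negative cells were the 1 class with members called between the groups. Some other settings on all 4 pools also called members in Pdcd1 Cd8 cells, as given at the end. In co-receptor-negative cells 37 of 80 were lower in the Runx1::Runx1t1 group and 0 higher, with a median of -0.25 over the members. Of all genes, 3.79% and 5.92% were called lower and higher there. Rps12 had 3384 and 3196 CPM in the Runx1::Runx1t1 pools and 3989 and 4363 in the control pools, a log2 fold change of -0.42 ± 0.08 (edgeR, adjusted p = 0.0128). Rpl36a followed with -0.39 ± 0.08 and Rplp1 with -0.39 ± 0.07, the latter with 7138 and 6778 against 8549 and 8761 CPM. Rps27l differed by -0.01 and was not called. The count was 2 with cells classed by cluster, 58 without replicate 1 and 13 without replicate 2 of the Runx1::Runx1t1 group, and 9 without replicate 2 of the control group. The make-up of this class moved with the groups. Cells with a UMI of Klrb1c made up 27.8% and 17.4% in the Runx1::Runx1t1 pools and 47.7% and 47.4% in the control pools. Summed neutrophil transcripts were 27.3 and 58.6 CPM against 1373 and 470. The part of either in the difference was not tested.

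**Figure D5:**
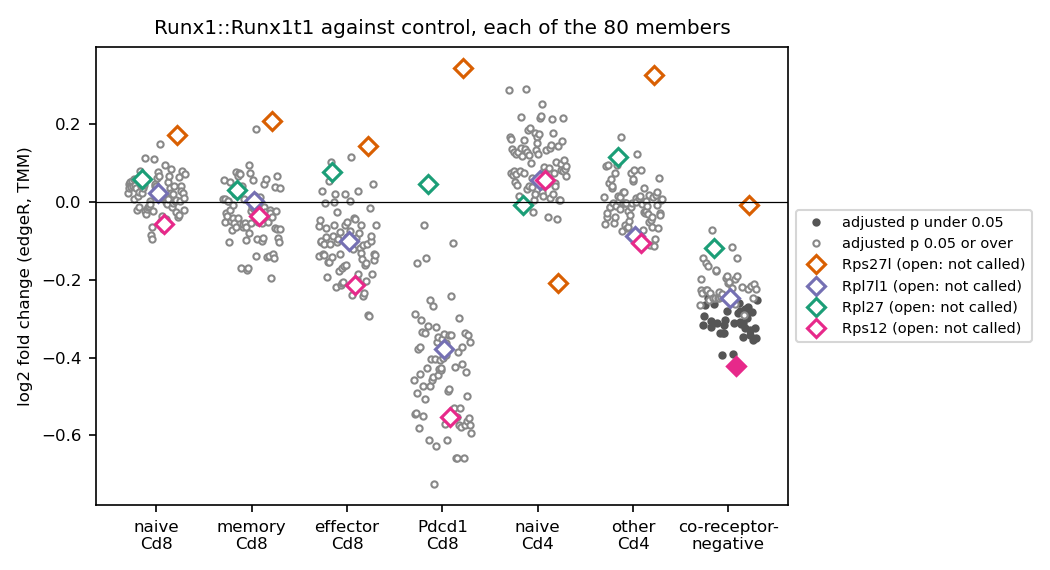
Log2 fold change of each of the 80 members (edgeR with TMM scaling, vertical axis) between the Runx1::Runx1t1 and control groups in 7 classes, with filled symbols for an adjusted p under 0.05. Filled symbols occur in co-receptor-negative cells alone, where 37 members were called lower, and the median in Pdcd1 Cd8 cells is -0.43.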

How the data were processed

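From 10x 5′ libraries of 4 pools the authors deposited raw UMI counts for called cells, made with Cell Ranger 6.1.2 on GRCm38 per the submitters' processing notes. The annotation release is not given in the sources used here. Contig tables with counts of UMIs for each TCR chain, also deposited, were used to define clones by their TRA and TRB chains.

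Barcodes with under 200 genes (17) or over 15% mitochondrial UMIs (796) were left out. Scrublet, in scanpy 1.11.5, scored doublets (expected rate 0.05), and the top 5% of scores were removed in the 3 libraries where the automatic limit found fewer than 0.5%. Clusters for the alternative classes used 4000 variable genes, 50 principal components, 4 neighbors per library and Leiden resolution 2.

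Shares are summed member UMIs over all UMIs of a class in a pool. Counts were summed per pool and class and fitted with edgeR 4.0.16 (quasi-likelihood test, TMM, filterByExpr, adjusted p under 0.05), with the pool as a block between classes and over 2 against 2 pools between groups. DESeq2 1.42.0 was an alternative. SE is the log2 fold change divided by the root of F. CPM values are not TMM-scaled, so their ratios differ from the fitted fold changes. Copies were matched with blastn 2.17.0 at 97% identity over 80% of a transcript.

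Members and gene lists were chosen with earlier results of these data known. Named were the 10 most abundant members, the 4 largest called changes each way for each comparison of classes and 3 for each comparison of groups, members called against the majority, paralogs and the members at the UMI limit. Per the study's methods the groups were sex-matched littermates, but no source used here ties a replicate number to a litter, and p-values measure the spread between pools. A few members and 1 gate gene that these rules name are not reported here.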

Additional observations from a re-analysis of the deposited data

How the results depend on the processing

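The direction of every difference in share between classes held under all alternatives run. Values moved by more than 1 SD of the pools under stricter gates (memory -5.26, effector -18.3 and other against naive Cd4 -12.6 points), cluster classes (memory -5.12, effector -17.6, Pdcd1 -19.8 and co-receptor-negative -9.91), gates on thinned cells (memory -6.51 and effector -18.7) and means over cells (memory -4.70 and effector -16.6). Between groups, leaving out 1 pool gave -2.88 to -0.738 points in effector Cd8, -2.11 to -0.0237 in memory Cd8 and -1.73 to -0.144 in other Cd4 cells, thinned gates gave -3.11 points in memory Cd8 cells, and cluster classes -3.17 in Pdcd1 Cd8 and -1.85 in co-receptor-negative cells. The sign turned without replicate 2 of the Runx1::Runx1t1 group in naive Cd8 cells (leaving out 1 pool gave -1.18 to 0.288) and without replicate 1 of the control group in naive Cd4 cells (-0.0903 to 2.55). No cluster was most often naive Cd4, so cluster classes gave no value there.

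Member counts in memory Cd8 cells were 37 without a filter, 36 with no replicate block and 23 to 54 when leaving out 1 pool. They were 41 with library size scaling and 52 by DESeq2. Of all genes, 3206 of 20252 were called without a filter and 2390 to 3202 when leaving out 1 pool. Of 11365 genes, 2597 were called with no replicate block, 3607 with library size scaling and 3681 by DESeq2. Library size scaling also gave 41 in naive Cd4 cells, where 1354 of 11365 genes were called. Between groups, leaving out 1 pool gave 0 to 44 in effector Cd8, 0 to 70 in Pdcd1 Cd8, 0 to 31 in naive Cd4 and 9 to 58 in co-receptor-negative cells. In Pdcd1 Cd8 cells 4 members were called with library size scaling, 30 by DESeq2, 47 without a filter and 32 with a replicate block, each lower. Of all genes, 380 of 9453, 422 of 9453, 1229 of 15864 and 747 of 9453 were called there in the same order. In co-receptor-negative cells 56 were called by DESeq2, 68 without a filter, 2 with cluster classes and 19 without clones of 10 or more cells. The last alternative was added after seeing the data. Of all genes, 883 of 12457, 1995 of 18423, 427 of 12384 and 998 of 12411 were called there in the same order. No source used here says what a shared replicate number marks, and 2 pairs are too few to tell. Same-numbered pools of the groups correlated in their deviations at 0.118 to 0.349 by class. The replicate block left the count at 29 in co-receptor-negative cells, where 1980 of 12457 genes were called. The causes of these changes were not tested.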
